A study of Mus musculus with 6 samples.

Results

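Msx1 and Msx2 are paralogous homeobox genes, and they were described here in sorted Müllerian duct mesenchyme of male and female mouse embryos. They are 2 of 37991 gene identifiers in the deposited counts, found by gene symbol, and both were among the 15227 genes with enough counts to be tested. The pair was selected on its male and female counts in these same libraries, so its levels and fold changes are a description and no p-value is given for either gene. The male group and the female group each held 3 libraries, called biological replicates 1 to 3, from embryos at embryonic day 14.5. All 6 libraries shared the genotype Amhr2Cre/+, R26R YFP/+ on a mixed strain background of C57BL/6J and 129/SvEv. Cells were taken by YFP, which marks cells with Cre activity under the control of Amhr2 and their descendants, wherever in the sorted tissue they lie. RNA of 2 to 7 embryos was pooled for each library, so the spread between replicates is a spread between pools. There is no group without Amhr2-Cre, and both sexes carry 1 modified Amhr2 allele. Counts in genes ranged from 22511872 to 24749859 per library. Male replicate 1 and female replicate 1 stood apart from the rest: counts outside genes made up 18.2% and 17.5% there, against 5.45% to 5.50% in the other male and 3.53% to 8.65% in the other female libraries.

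MSX proteins are homeodomain transcription factors, relatives of the muscle segment homeobox protein of Drosophila, and act mostly as repressors. In mouse tooth, limb and skull the genes are induced by bone morphogenetic proteins (BMPs), which signal through type I and type II receptors to SMAD1, SMAD5 and SMAD9. Anti-Müllerian hormone (AMH) from the fetal testis binds AMHR2 and uses BMP type I receptors and the same SMADs, and its action on the mesenchyme makes the Müllerian duct regress in males. In the adult mouse uterus both Msx genes are known for their part in implantation.

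The coding sequences of the paralogues are most alike in the homeobox, the part that encodes the DNA-binding homeodomain, and this part is shown because reads from it have to be told apart between the genes. In the GENCODE M21 transcripts, 152 of 180 bases of the best ungapped coding window matched (84.4%). A 90-base stretch that overlaps the start of this window is printed 5′ to 3′, with the 17 bases that differ between the genes in capitals.
Msx1, coding bases 526 to 615: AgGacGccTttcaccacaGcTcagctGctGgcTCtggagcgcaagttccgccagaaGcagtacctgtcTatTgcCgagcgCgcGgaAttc
Msx2, coding bases 436 to 525: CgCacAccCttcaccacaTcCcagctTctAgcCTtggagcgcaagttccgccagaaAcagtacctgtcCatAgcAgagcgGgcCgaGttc
The longest run of bases shared by any transcripts of the genes was 22, shorter than the 76-base reads. Msx1 lies on chromosome 5 and Msx2 on chromosome 13, each with 2 exons in its longest transcript. Msx1 overlaps an antisense RNA gene, Msx1os, in RefSeq. Strand is not marked by the library kit, and reads of the antisense RNA cannot be told apart from those of Msx1. RefSeq also places a non-coding RNA gene, Gm33763, over part of Msx2, and the same limit holds there.

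The stretches upstream of the start sites were read for short motifs, because both genes differ in the same direction between the sexes. The motifs were TAAT, the core recognised by many homeodomains, GTCT, the short SMAD box, and GGCGCC, a GC-rich SMAD motif, each on both strands in the 250 bases before the start in RefSeq (build GRCm38.p6). The Msx1 stretch is chr5:37824586-37824835, minus strand, with TAAT or its reverse complement ATTA in capitals.
Msx1: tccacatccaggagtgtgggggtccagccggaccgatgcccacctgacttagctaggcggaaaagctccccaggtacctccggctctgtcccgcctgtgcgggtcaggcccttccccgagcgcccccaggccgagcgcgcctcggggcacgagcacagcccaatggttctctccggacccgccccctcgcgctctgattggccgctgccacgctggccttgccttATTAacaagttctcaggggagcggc
For Msx2 only 30 of the 250 bases are shown, those that hold the densest TAAT matches, since GENCODE starts the first exon of this gene further upstream and all 250 bases then lie inside that exon, as transcribed and not upstream sequence. They are chr13:53472941-53472970, minus strand, with the same capitals.
Msx2: ctgTAATTAactccTAATttatttcaaacg
TAAT was found 5 times before Msx2, in part overlapping within a single TAATTA, and 1 time before Msx1. At least 5 matches were present in 5.54% of all 32851 RefSeq windows of this length, and at least 1 in 54.9%. GTCT was found 1 time before Msx2 and not before Msx1, and 82.9% of windows hold it. GGCGCC was in neither stretch, and 9.59% of windows hold it. By the GENCODE start the Msx2 matches are in the transcript. These are matches of letters and no evidence of binding.

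Male libraries held far more Msx2 than female libraries. Msx2 (ENSMUSG00000021469) had 4153, 4241 and 6176 counts in male replicates 1 to 3, against 51, 64 and 52 counts in female replicates 1 to 3. As CPM (counts relative to the library's total in genes, scaled between libraries by TMM), these were 159, 209.6 and 260.2 in male libraries and 1.87, 3.15 and 2.08 in female libraries. The groups lay far apart: the lowest male level was 50.5 times the highest female level, whereas levels within a sex differed by at most 1.68-fold. Msx2 averaged 209.6 ± 50.7 CPM in male and 2.37 ± 0.683 CPM in female libraries (SD, n = 3 each), with a log2 fold change of male over female of 6.47 (SE 0.46). It ranked 18 among all 15227 tested genes by log2 fold change.

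Msx1 (ENSMUSG00000048450) was also higher in every male library, by less and with more scatter. It had 641, 988 and 1339 counts in male replicates 1 to 3, against 71, 215 and 64 counts in female replicates 1 to 3. These were 24.5, 48.8 and 56.4 CPM in male libraries and 2.61, 10.6 and 2.56 CPM in female libraries. The groups did not overlap, but female replicate 2 held 4.13 times the Msx1 of female replicate 3, and the lowest male level was 2.32 times that of female replicate 2. The counting interval of female replicate 2 (95% Poisson, 9.21 to 12.1 CPM) lay clear of those of female replicates 1 and 3, which ended at 3.29 and 3.27 CPM. Msx1 averaged 43.3 ± 16.7 CPM in male and 5.25 ± 4.61 CPM in female libraries (SD, n = 3 each), with a log2 fold change of 3.05 (SE 0.72). Without female replicate 2 the log2 fold change of Msx1 was 4.07 (SE 0.57). Without male replicate 1 the log2 fold change was 3.33 for Msx1 and 6.63 for Msx2, and without female replicate 1 it was 2.72 and 6.32. In sorted bulk tissue, a difference in the number of cells that express a gene and a difference in its RNA per cell cannot be told apart.

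**Figure D1:**
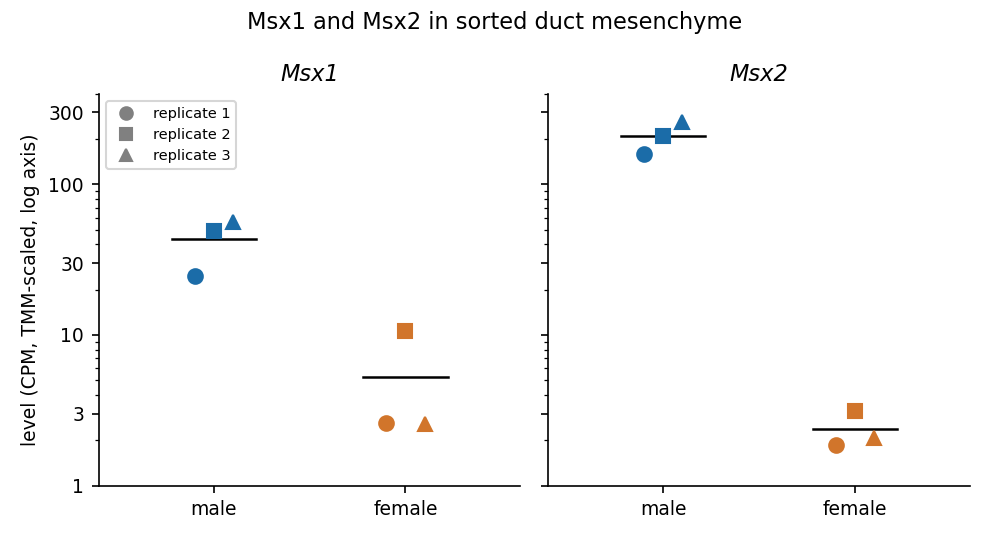
Levels of Msx1 (left) and Msx2 (right) in CPM on a log axis, with 1 symbol per library and a black line at the mean of each sex. All male libraries lie above all female libraries for both genes, with Msx2 at 159 to 260.2 CPM in male and 1.87 to 3.15 CPM in female libraries.

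Of the 2 genes, Msx2 passed the threshold across all genes tested (edgeR quasi-likelihood test, adjusted p threshold 0.05) and Msx1 did not. The same test called 1.23% of all 15227 genes, 0.841% higher and 0.387% lower in male, and nothing is read from the call of Msx2, since this contrast entered the choice of the pair. For both genes the male libraries lay wholly above the female libraries, as they did for 6.47% of all genes tested, while 7.27% lay wholly below. Leaving out male replicate 3 or female replicate 3 ended the call of Msx2, at log2 fold changes of 6.31 (SE 0.53) and 6.38 (SE 0.67); no gene of the whole table was called by edgeR in those fits, where 938 and 884 genes had an unadjusted p under 0.05. Msx1 passed with DESeq2, at 3.08 (SE 0.68), and with an offset for GC content and transcript length, at 2.93 (SE 0.38), settings that called 2.2% and 3.02% of their tested genes higher in male. With that offset 460 genes were called higher and 445 lower in male, against 128 and 59 without it.

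The balance between the paralogues differed between the sexes. Within a library the ratio of Msx2 to Msx1 counts does not depend on scaling between libraries. It was 6.48, 4.29 and 4.61 in male replicates 1 to 3, against 0.718, 0.298 and 0.813 in female replicates 1 to 3. Msx2 held more counts than Msx1 in every male library and fewer in every female library. On the log2 scale the ratio averaged 2.33 ± 0.317 in male and −0.84 ± 0.790 in female libraries (SD, n = 3 each), a difference of 3.18. Per kilobase of the longest reference transcript, 1935 bases for Msx1 and 2453 bases for Msx2, the level of Msx2 over that of Msx1 was 5.11, 3.39 and 3.64 in male and 0.567, 0.235 and 0.641 in female libraries. Per kilobase of coding length the mean ratio was 5.82 in male and 0.692 in female libraries, so each sex stayed on the same side of 1.

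**Figure D2:**
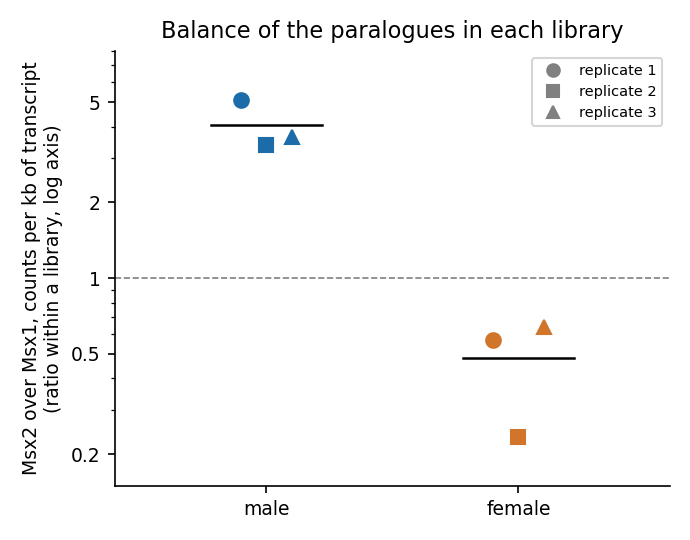
Ratio of the Msx2 to the Msx1 level per kilobase of transcript in each library, on a log axis, with a black line at the mean of each sex and a dashed line at equal levels. The 3 male libraries lie between 3.39 and 5.11 and the 3 female libraries between 0.235 and 0.641.

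Set against the other genes of the same library, the pair stood at different places in the 2 sexes. In male libraries the Msx2 level per kilobase was above that of 92.9% to 95.6% of the 14674 tested genes with a known length. In female libraries it was above that of 15.1% to 25.3% of them. For Msx1 the range was 64.0% to 81.5% in male and 21.3% to 48.9% in female libraries. Both genes were thus detected in every library, and in female libraries both lay below the middle of the tested genes. Msx3, the remaining mouse gene of the family, known from the neural tube, held 1 count in each male library and 1 count in all female libraries together, too few to be tested.

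The scatter of Msx1 within a sex went with GC content and length trends of the libraries. The Msx1 transcript has a GC content of 58.2% and the Msx2 transcript one of 48.5%. For each library, the deviation of every gene from that gene's own mean over the 6 libraries was taken in log2 CPM. A smooth trend of these deviations was fitted over genes on GC content and length. In each library this trend accounted for 0.104 to 0.461 of the variance of the deviations. For Msx1 the fitted trend ran from −0.77 (female replicate 1) to 0.69 (male replicate 2) on the log2 scale, and for Msx2 it lay between −0.09 and 0.04. Removing it took the pooled SD of Msx1 within a sex to 0.497, against 0.933 before, on the log2 CPM scale. For Msx2 the corresponding SDs were 0.357 and 0.370. Msx1 in female replicate 2 stayed the highest of the female libraries after removal, at 2.88 against 2.20 and 1.58 in female replicates 1 and 3 (log2 CPM). The median of this SD over all genes tested, without removal, was 0.645; the SD of Msx1 was above that of 75.8% of them and the SD of Msx2 above that of 23.3%.

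**Figure D3:**
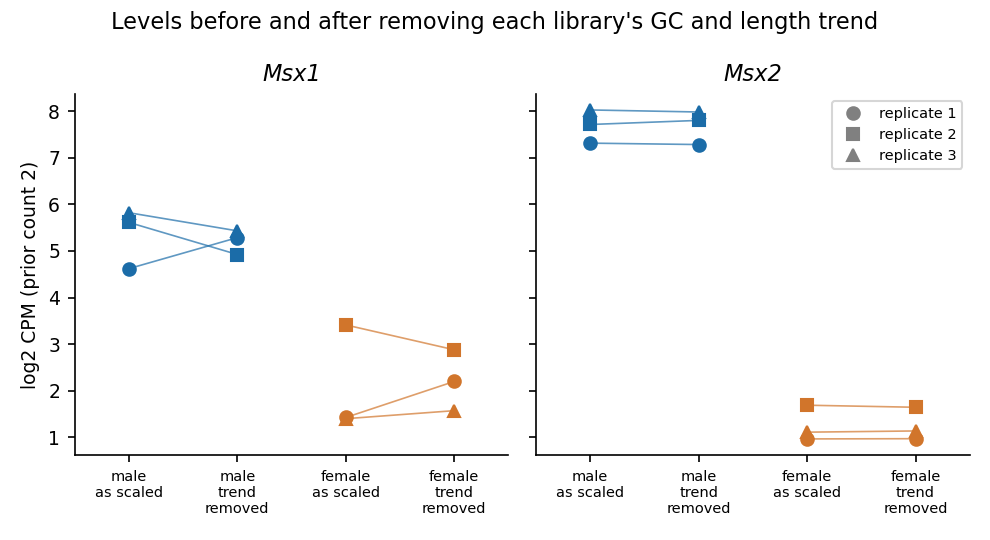
Log2 CPM of Msx1 (left) and Msx2 (right) in each library, as scaled and after each library's fitted trend with GC content and transcript length was removed, joined by a line per library (blue male, orange female). The Msx1 points of a sex draw closer together (pooled SD 0.497 against 0.933), while those of Msx2 hardly move (0.357 against 0.370).

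On the chromosomes, no tested neighbour of the pair was called in the direction of the pair, and 1 neighbour of Msx2 was called in the opposite one. Of the 16 nearest protein-coding genes, 4 on each side of each member in GENCODE order, 14 were tested. Around Msx1 these were Evc, Evc2, Stk32b, Stx18, Nsg1, Zbtb49 and Lyar, and around Msx2 they were Auh, Nfil3, Ror2, Sptlc1, Drd1, Sfxn1 and Cplx2. Of all genes tested, 0.841% were called higher and 0.387% lower in male, so most sets of 14 genes would hold no call. Nothing about these loci is therefore read from the number called. Of the neighbours, none was called higher in male (edgeR, with none at an unadjusted p under 0.05 and none with DESeq2) and 1 was called lower. That gene was Drd1, the dopamine D1 receptor gene and the next protein-coding gene after Msx2 on chromosome 13. Drd1 had 1 count in each male library, against 62, 15 and 35 counts in female replicates 1 to 3, so its male level rests on 3 counts in all. By these counts Drd1 was 36.1 times higher in female (exact 95% interval 12.03 to 177.6, counting error only). It passed the filter on low counts only through the female libraries, where it is high, so nothing is read from its call. The call was lost when any of the 6 libraries was left out. The other 13 tested neighbours had log2 fold changes of male over female between −0.69 and 0.97. Sptlc1, which encodes a subunit of serine palmitoyltransferase and lies on the other side of Msx2, had 64.9 ± 12.7 CPM in male and 63.8 ± 14.7 CPM in female libraries. Stx18, an endoplasmic reticulum syntaxin gene beside Msx1, had 29.6 ± 4.05 CPM in male and 27.6 ± 2.76 CPM in female libraries, and Cytl1, on the other side of Msx1, had too few counts to be tested.

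**Figure D4:**
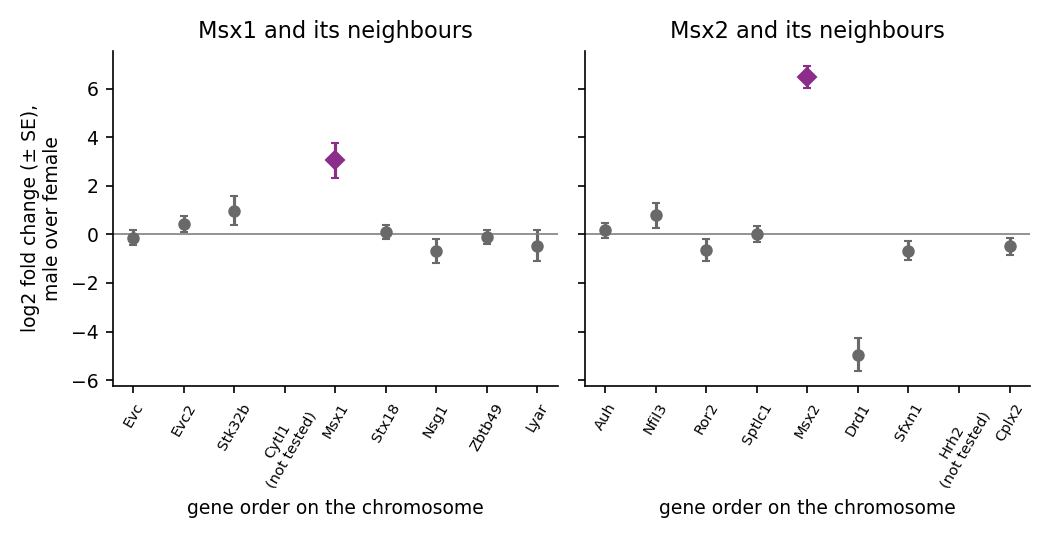
Log2 fold change of male over female (points, with SE bars) for Msx1 and Msx2 (diamonds) and their 4 nearest protein-coding genes on each side, in gene order. Msx1 at 3.05 and Msx2 at 6.47 stand above their tested neighbours, which lie between −0.69 and 0.97 apart from Drd1 at −4.94.

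At the start of the pathway are the ligands, receptors and SMADs of AMH and BMP signalling. Of 18 such genes, all tested, 1 was called higher and 1 lower in male, against 0.841% and 0.387% of all genes tested. The median log2 fold change was −0.05, against −0.01 over all genes tested. Bmp7, which encodes a BMP ligand, fell: it had 312, 437 and 414 counts in male libraries, against 2837, 2769 and 3011 in female libraries. It fell by 2.82 on the log2 scale (SE 0.37), at an adjusted p of 0.0254 in edgeR. Amh itself rose, with 226, 363 and 595 counts in male libraries against 15, 14 and 18 in female libraries (log2 fold change 4.71, SE 0.54, edgeR adjusted p = 0.0194). Both calls were lost without male replicate 2 or 3 or any female replicate. Bmp2 and Bmp4, further ligands known to induce Msx genes, stood at 0.13 (SE 0.42) and −1.07 (SE 0.52) on the log2 scale and did not pass. Amhr2, at 339 ± 158 CPM in male and 530.3 ± 233.7 CPM in female libraries, and the type I receptor gene Bmpr1a, at 169 ± 134 CPM in male and 178 ± 102 CPM in female libraries, did not pass either.

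Msx1 and Msx2 belong among the genes known to respond to BMP-SMAD signalling. Of 17 further such genes, 16 were tested and 6 rose: Dlx5, Bmper, Gata3, Hey1, Id4 and Smad9. None fell (edgeR, with none at an unadjusted p under 0.05 and none with DESeq2). Of all genes tested, 0.841% were called higher and 0.387% lower in male. The median log2 fold change of the list was 2.46, against −0.01 over all genes tested. Dlx5, a homeobox gene that acts in bone and limb, stood at 60.8 ± 21.0 CPM in male and 0.475 ± 0.174 CPM in female libraries. With 8, 10 and 16 female counts Dlx5 passed the filter on low counts through the male group. A gene kept that way tends to be higher in male, so its call adds nothing to the number. The other 5 held at least 31 counts in every female library. Bmper, a secreted BMP modulator, Gata3, a zinc finger factor, and Hey1, a transcriptional repressor also known as a Notch target, were higher by 2.49 (SE 0.34), 2.81 (SE 0.39) and 2.61 (SE 0.36) on the log2 scale, at edgeR adjusted p of 0.0281 each. The number called was 8 without male replicate 1, 1 without female replicate 1 and 0 without any other library, and it was 10 with the GC content and length offset. This list and the pair were compared over the same 6 libraries, so the list is no separate sample of the difference.

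Few genes of the wider homeobox class of the pair had enough counts to be tested. Of 39 further genes of the NK-like class, 7 were tested and 7 others held no counts in any library. Of the 7 tested, 5 rose: Dlx5, Dlx3, Dlx6, Dlx2 and Hlx. None fell (edgeR, with 1 lower at an unadjusted p under 0.05 and none with DESeq2). Of all 15227 genes tested, 0.841% were called higher and 0.387% lower in male, and 686 were lower at an unadjusted p under 0.05. The 5 genes that rose held at most 34 counts over the female libraries and passed the filter through the male group. A gene kept that way tends to be higher in male, so their number is no measure of the class. Dlx3, a homeobox gene of skin, placenta and bone, had 161, 156 and 218 counts in male libraries, against 8, 4 and 8 in female libraries. Dlx2 had 119, 119 and 190 counts in male libraries, against 2, 0 and 2 in female libraries, and Dlx6 had 501, 115 and 346 against 3, 2 and 1. Emx2 and Lbx2, the tested genes that did not pass, differed by −1.28 (SE 0.42) and −1.36 (SE 0.70) on the log2 scale. Emx2, a gene needed for the urogenital tract, stood at 45.2 ± 14.8 CPM in male and 109.8 ± 33.4 CPM in female libraries, and Lbx2 at 0.718 ± 0.398 CPM in male and 1.85 ± 1.39 CPM in female libraries. The number called higher was 1 without male replicate 2 or female replicate 1, and 0 without male replicate 3 or female replicate 2 or 3.

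Other genes are reported as partners or targets of MSX proteins, mostly from other tissues. Of 21 such genes, 15 were tested, 3 rose (Dlx5, Sp7 and Dlx2) and none fell (edgeR; none at an unadjusted p under 0.05 and none with DESeq2). Of all genes tested, 0.841% were called higher in male. The median log2 fold change of the list was 0.60, against −0.01 over all genes tested. Dlx5 and Dlx2, with 34 and 4 female counts in all, passed the filter through the male group, and Sp7 did not depend on that group to pass. The list, with Sp7 on it, was chosen with earlier results of these data known, so the call of Sp7 is no separate support. Sp7, which encodes osterix, had 4834, 4401 and 6693 counts in male libraries against 754, 648 and 687 in female libraries, which is 2.97 higher on the log2 scale (SE 0.34; adjusted p = 0.0180 in edgeR). Pax3, which encodes a partner of MSX1, held no counts in any library, and the muscle regulator Myod1, a gene that MSX1 is known to repress, held between 1 and 8 counts per library. The number called was 3 without male replicate 1, 1 without female replicate 1 and 0 without any other library.

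**Figure D5:**
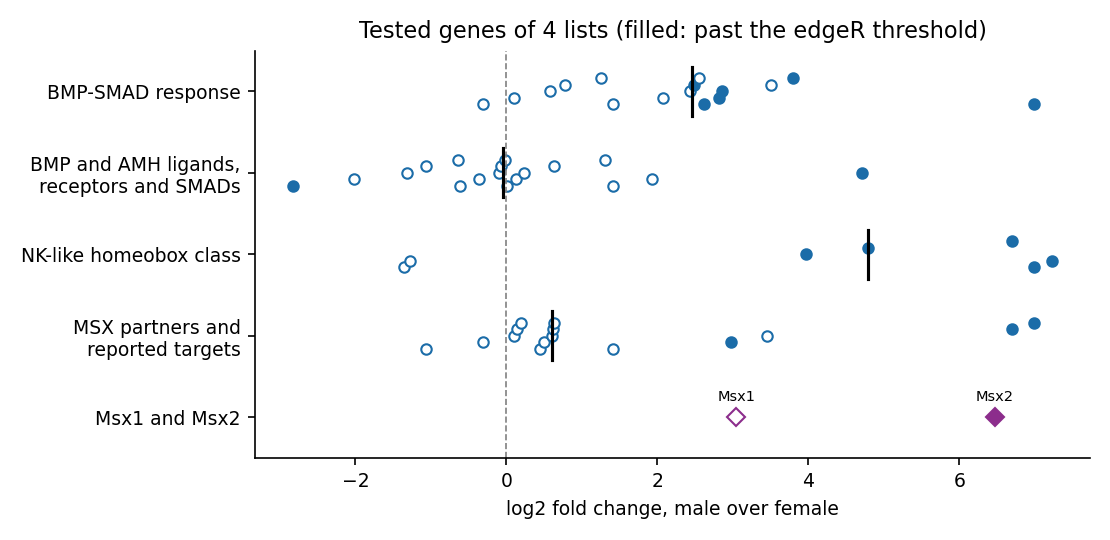
Log2 fold change of male over female for the tested genes of 4 lists and for Msx1 and Msx2 (diamonds), with filled symbols past the edgeR threshold, a black bar at each list's median and a dashed line at the median of all genes tested. Msx2 at 6.47 lies below Dlx2 at 6.70, Dlx5 at 6.99 and Dlx6 at 7.22, and Msx1 at 3.05 lies above the median of the BMP-SMAD response list, 2.46.

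The genes whose levels ran most like those of each member were sought by Pearson's r of log2 CPM over the 6 libraries, among 13131 autosomal genes. For Msx2 these were Slc24a3, Dner, Draxin and Lhfpl2, each with an r of 0.999, and Lss with 0.998. Slc24a3, a sodium, potassium and calcium exchanger gene, stood at 43.6 ± 5.14 CPM in male and 4.81 ± 0.996 CPM in female libraries. Genes picked for likeness to Msx2 over these libraries had to differ by sex, so no test between the sexes is given for them. Draxin, which encodes a secreted axon guidance protein, had 520, 461 and 635 counts in male libraries against 74, 73 and 80 in female libraries. For Msx1 the 5 genes were Dusp22, Dync1i1, Spns2, Casp6 and Plaur, with r between 0.996 and 0.999. An r takes no account of the size of a change. The 5 genes of Msx1 had log2 fold changes of 0.63 (Dusp22) to 2.44 (Spns2), against 3.05 for Msx1. Those of Msx2 had 0.64 (Lss) to 3.39 (Dner), against 6.47 for Msx2. Dync1i1, a dynein subunit gene, had 3.63, 6.23 and 6.11 CPM in male libraries and 0.735, 1.77 and 0.680 CPM in female libraries, with female replicate 2 the highest of its sex as for Msx1. The paralogues themselves had an r of 0.94. That placed Msx1 at rank 296 for Msx2 and Msx2 at rank 243 for Msx1, where 442 and 482 genes had an r above 0.9. The points share 2 groups of 3 libraries, so these values describe these libraries and carry no p-value.

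Y-linked transcripts (4 genes together) came to at least 52.0 CPM in male and at most 0.441 CPM in female libraries, as labelled in all 6. Of the genes listed for duct mesenchyme, all 9 were tested and none was called (edgeR, with 2 lower at an unadjusted p under 0.05, and none with DESeq2). Their summed CPM was 5041 to 5312 in male and 3443 to 5221 in female libraries. Col1a1, also in the osteoblast list, made up 1603 to 2293 CPM of it in male and 974.5 to 1876 CPM in female libraries. The members went both ways, 5 of the 9 being above 0. Hoxa10 and Hoxa11 each stood at −1.16 and Pdgfra at 1.07 on the log2 scale. Genes of other cell types were read the same way, with 0.841% of all genes tested called higher and 0.387% lower in male. Of 8 genes of Sertoli cells, the supporting cells of the testis, 7 were tested and 3 rose (Amh, Cst9 and Sox9; Cst9, with 2 female counts in all, passed the filter through the male group), with a summed CPM of 86.4 to 158 in male and 26.2 to 65.2 in female libraries. Of the 6 pregranulosa genes, all tested, none was called in either direction (edgeR; 1 higher and 2 lower at an unadjusted p under 0.05, and 1 higher and 2 lower with DESeq2), and the median log2 fold change was −1.10. Their sum, 274 to 545 CPM in male and 109 to 187 CPM in female libraries, was mostly Wnt4, at 256 to 531 CPM in male and 74.4 to 151 CPM in female libraries. Foxl2 and Irx3, the genes of this list most typical of ovarian supporting cells, stood at −2.34 and −3.73 on the log2 scale and did not pass. Irx3, with 5, 3 and 11 male counts, passed the filter through the female group, so nothing is read from its value. Of 6 endothelium genes 5 were tested and none was called (edgeR; 1 higher at an unadjusted p under 0.05 and 1 higher with DESeq2). Their sum was 141 to 328 CPM in male and 47.4 to 93.4 CPM in female libraries, of which Kdr alone made up 133 to 319 CPM in male and 40.4 to 86.1 CPM in female libraries. Pecam1 stood at −0.40 and Cdh5 at 0.33 on the log2 scale. Of 6 neuron and Schwann cell genes 4 were tested and Stmn2 rose. Their sum was 67.3 to 76.3 CPM in male and 15.2 to 29.8 CPM in female libraries, with Stmn2 at 47.0 to 68.1 CPM in male and 9.59 to 11.7 CPM in female libraries. The sum of 9 duct epithelium genes overlapped between the sexes, at 150 to 498 CPM in male and 204 to 725 CPM in female libraries, with Epcam lower in male. So did the sum of 5 blood and macrophage genes and that of 7 osteoblast genes, the latter at 2515 to 4011 CPM in male and 1612 to 3422 CPM in female libraries. The osteoblast sum was mostly Col1a1 and Sparc, with Sparc at 846 to 1675 CPM in male and 598.5 to 1511 CPM in female libraries. Of the osteoblast genes 6 were tested, all with a log2 fold change above 0 (median 0.51), and Ibsp rose (1 female count in all, so it passed the filter through the male group). In the lists with no call, the smallest p belonged to Hoxa10 (mesenchyme), Irx3 (pregranulosa), Kdr (endothelium) and Cd68 (blood and macrophages). No gene of these lists was at 0 in every library. The part of such cells in the levels of Msx1 and Msx2 was not tested.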

How the data were processed

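The deposited files, 1 per library, list raw counts per Ensembl gene. In each, 5 further lines sum reads counted to no gene; these were left out, and the counts outside genes and the ambiguous counts came to 3.53% to 18.2% and 6.51% to 10.0% of the sum of gene, non-gene and ambiguous counts. Per the submitters' processing notes, the tools were TopHat, HTSeq and DESeq and the build was mm9, with no version or role for any of them. For the strand setting and the annotation release, the sources used here give nothing. Libraries came, per the labels, from the TruSeq v2 kit with at least 100 ng of total RNA each, and were read as 76-base pairs. The reference (GENCODE M21 and RefSeq, GRCm38) gave symbols for 32919 of 37991 identifiers, lengths, GC content, gene order and sequences. Its build is not that of the counts.

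In R 4.3.3, edgeR 4.0.16 tested the genes that filterByExpr kept, after TMM scaling, by its robust quasi-likelihood F test. The model held sex alone, tests were two-sided, and p-values were adjusted by Benjamini-Hochberg over all genes with a threshold of 0.05. A standard error is the absolute log2 change divided by the root of its F value. The test was also run on counts simulated from the means and dispersions fitted here, and no result of that run is given. CPM is computed from the deposited counts. Alternatives were DESeq2 1.42.0, other scalings, no filter, a replicate block, a GC content and length offset (splines with 5 degrees of freedom; 96.4% of tested genes had a value) and leaving out each library. Log2 CPM has a prior count of 2. Intervals cover counting error only, since reads carry no molecular identifiers.

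The pair, the lists and the tests were chosen with earlier results of these data known. Named were the pair, up to 4 called genes per list and direction (other called genes are named without values), the 5 genes most like each member with a mean of at least 1 CPM in 1 sex, the neighbours, and Bmp2, Bmp4, Bmp7, Amhr2, Bmpr1a, Sp7 and Dlx5; Emx2, Lbx2, Pax3, Myod1 and Msx3 were named besides, after their values were seen.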

Additional observations from a re-analysis of the deposited data

How the results depend on the processing

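The signs of the fold changes of Msx1 and Msx2, and of the sex difference in their ratio, were the same in every alternative run. Leaving out 1 library at a time gave log2 fold changes of 2.71 to 4.07 for Msx1 and 6.31 to 6.73 for Msx2, and 2.72 to 3.45 for the log2 ratio difference. Msx1 passed with DESeq2 (3.08), with the GC content and length offset (2.93), with a replicate block (3.25) and with the block and the offset together (2.95); the remaining 9 alternatives left it short of the threshold. Per coding length the male mean of the Msx2 over Msx1 ratio was 5.82, against 4.05 per transcript length.

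The number of genes called was 187. It was 721 with DESeq2, 905 with the offset, 4164 with a replicate block, 4418 with the block and the offset, and 0 to 173 without 1 library. Replicate numbers matched between the sexes for replicates 1 and 2 but not for replicate 3. Deviations from the sex mean correlated at 0.93, 0.85 and −0.07 for replicates 1, 2 and 3. Male replicate 3 correlated best with female replicate 2 (0.59). The model with sex alone takes no account of this likeness.

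Of the BMP-SMAD response genes, 6 were called higher; the number was 10 with the offset, 14 with the block, with or without the offset, and 0 to 8 without 1 library. Of the ligands, receptors and SMADs, 1 was called in each direction. With DESeq2, the offset, the block, and the block and offset, 2, 3, 4 and 4 were higher and 2, 4, 6 and 6 lower, and without 1 library 0 to 1 in each direction. Of the partner and target genes 3 were called higher; the number was 5 with the offset, 8 with the block, 10 with both and 0 to 3 without 1 library, and 1 and 2 were lower with the block and with both. Of the NK-like genes 0 to 5 were called higher without 1 library, and 2 were lower with the block, with or without the offset. With a prior count of 0.5, all 5 genes most like Msx1 and 4 of the 5 most like Msx2 were shared; by Spearman's rho 24 and 85 genes tied at the top. The causes of these changes were not tested.

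Female Msx2 rests on 51 to 64 counts per library. The counting intervals of female replicates 1 (1.395 to 2.464 CPM) and 2 (2.423 to 4.018 CPM) overlap only narrowly. Differences in Msx2 between female libraries were not tested.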
